A study of Mus musculus with 4 samples.

Results

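The genes described here encode the proteins of the small nuclear ribonucleoproteins (snRNPs), the RNA-protein particles that carry out splicing, and the factors that assemble, export, import and mature them. They were chosen by name and function, not by a cut on measured values, though with earlier results of these data known, as 49 genes in 8 role groups: Sm ring, U1 and U2 specific proteins, U5 and tri-snRNP proteins, minor spliceosome proteins, LSm ring, U7 snRNP, SMN complex, and cap binding, transport and maturation. Of the 49, 42 were found by name among the 12883 genes of the input table and 12 among the 7569 features of the immunoprecipitate table, where they held 19 transcript features. Members found in both tables numbered 11, and 6 were found in neither under these names.

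Liver RNA of mice on a C57/Bl6 background was compared between wild-type animals and animals labelled Fto knockout; type of knockout allele, age and sex are not given in the labels. Each genotype was measured in RNA pulled down by an N6-methyladenosine antibody (miCLIP, in which the antibody is crosslinked to RNA) and in input RNA. Each of the 4 labels states 3 replicates, and what was analysed are 2 tables of the authors' own comparisons, so no value of a single replicate is given. Nothing states that these came from different animals, so the p-values cover only the spread among the replicates used, part or all of which may be technical. A positive input fold change means more RNA in the knockout, a direction taken from Fto itself, which was lower (log2 fold change −1.49, SE 0.27, in the authors' deposited table). The same direction in the immunoprecipitate is an assumption, and every sign there turns if it is wrong.

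As background, an snRNA is made in the nucleus, bound at its cap by the cap-binding complex and exported with the adaptor PHAX. In the cytoplasm the SMN complex places a ring of Sm proteins on it, TGS1 hypermethylates its cap, and snurportin brings it back to the nucleus, where it passes through Cajal bodies. FTO removes methyl groups from adenosines in RNA, among them the N6,2′-O-dimethyladenosine (m6Am) that can stand at the first transcribed position, so for an mRNA the base at the start site decides whether it can carry that mark.

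The annotated start sites of members with an immunoprecipitate feature are shown because of that first base. RefSeq sequences (GRCm38.p6) were matched for 39 of the 49 genes, with 48 start sites, and for 11 of the 12 genes in the immunoprecipitate, with 13 start sites. Each window below has 15 bases before the annotated start and 15 from it on, read 5′ to 3′ on the gene's strand, with the annotated first base in capitals. The first 4 have A at the start; the other two have G and belong to Gemin7, the member with the highest immunoprecipitate fold change, and Prpf8, the member with the highest input mean.
Ncbp1, chr4:46138496-46138525, plus strand: ctccggaagtctcctAagtcgtcggcgcag
Prpf4, chr4:62408768-62408797, plus strand: gatacgtttccggccAgtgacgcacttcca
Snrpd2, chr7:19149823-19149852, plus strand: tcgccctgtacgccaAaggctggagcaacg
Snrnp25, chr11:32205400-32205429, plus strand: tcgtcggggcgggacAcaatcactgcgcac
Gemin7, chr7:19573329-19573358, minus strand: cggtggcggcggcgcGggtgtaggagcagc
Prpf8, chr11:75486762-75486791, plus strand: atctcggcgtctattGgatgagcttctgag

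Among the 13 start sites, 4 had A, 8 had G and 1 had C. Over all members 10 of 48 start sites had A (20.8%), against 34.4% of the 32851 start sites in the reference. Annotated starts need not be the starts used in liver, and the tables give a value per transcript or gene, not per position, so whether a read covered the first base is unknown.

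Input RNA of the snRNP genes was compared between genotypes to ask whether the transcripts of the machinery that builds snRNPs differed in level without Fto. No member passed. Of the 42, 0 had an adjusted p under 0.05 in the authors' deposited table and 0 had an unadjusted p under 0.05 (DESeq2 named in the submitters' processing notes), while among all genes tested 0.0389% and 2.21% did. The lowest unadjusted p was 0.0737, for Snrpa, and all 42 members had the same adjusted p, the highest in the table. Fold changes ran from −0.31 to 0.54 with a median of 0.08, and 30 of 42 (71.4%) lay above 0 in the authors' deposited table, against a median of 0.02 and 53.5% above 0 over all genes. A fold change larger in size than its standard error was found for 8 of 42 members, against 22.2% of all genes.

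**Figure D1:**
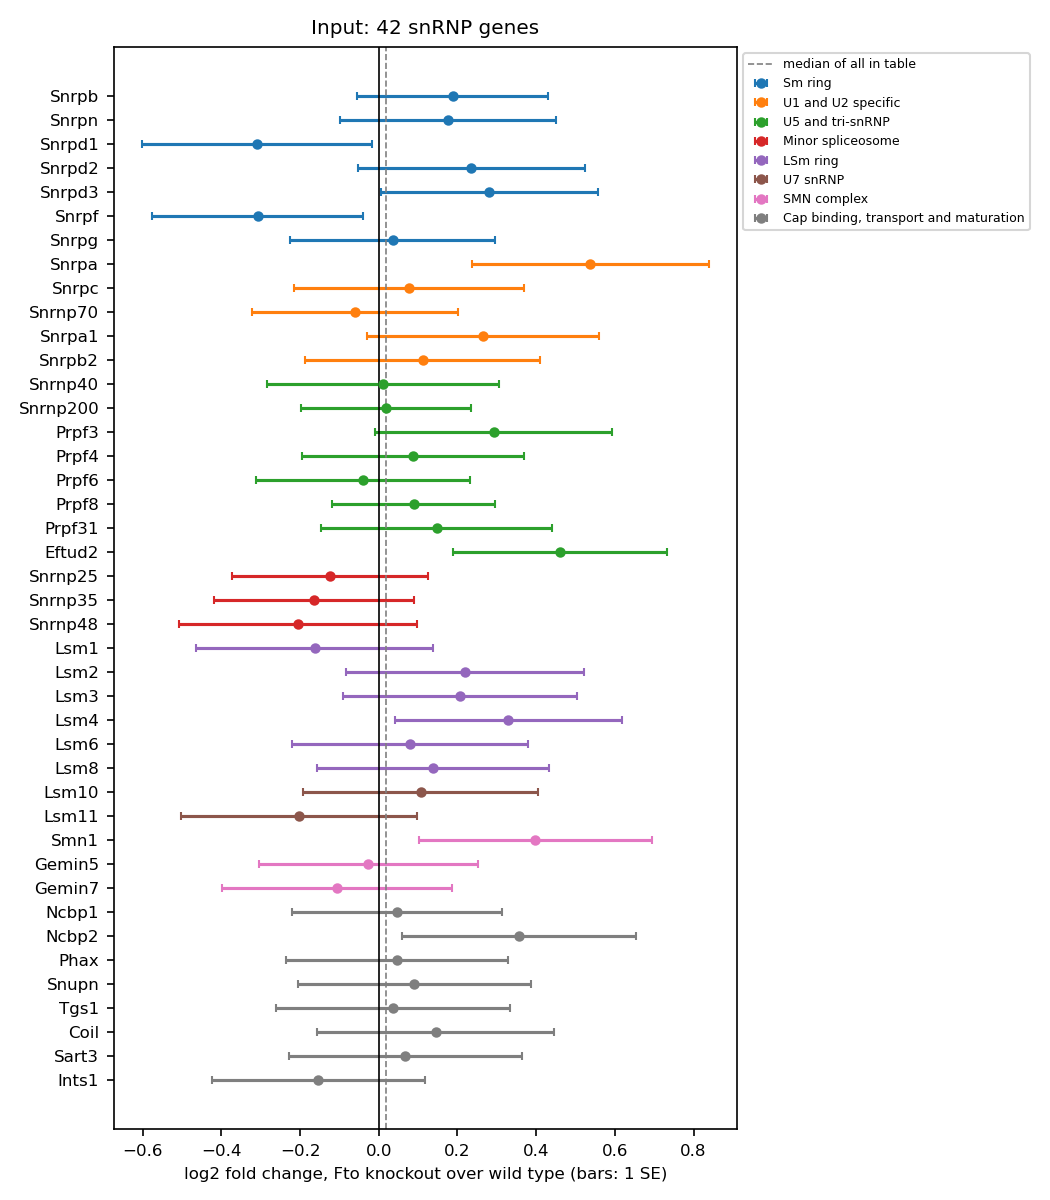
Log2 fold change of each of the 42 snRNP genes in the input, knockout over wild type, with bars of 1 standard error and colours for the role group; the dashed line is the median of all genes (0.02). All values lie between −0.31 and 0.54, and no member had an unadjusted p under 0.05.

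The Sm ring is the heptamer on the Sm site of the U1, U2, U4 and U5 snRNAs and their minor spliceosome counterparts. Its 7 measured members had fold changes from −0.31 to 0.28 in the input, with a median of 0.18 in the authors' deposited table. Snrpd3 was highest at 0.28 (SE 0.28, mean normalized count 35.1), followed by Snrpd2 at 0.24 (SE 0.29), in the authors' deposited table. The lowest pair was Snrpd1 at −0.31 (SE 0.29) and Snrpf at −0.31 (SE 0.27) in the authors' deposited table. The lowest unadjusted p in the ring was 0.252. Snrpb, which had the highest mean count of the ring genes (92.2, not corrected for length), stood at 0.19 (SE 0.24) in the authors' deposited table. Snrpn, its imprinted paralog known from brain, stood at 0.18 (SE 0.28) at a mean of 4.64 in the authors' deposited table. The identifier given to Snrpn carries another name, Gm38393, in the reference, and the annotated locus overlaps Snurf and Snhg14, so the reads counted there cannot be assigned to Snrpn alone. Snrpe was not found in either table.

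Among the proteins specific to U1 and U2, 4 of 5 lay above 0 in the input. Snrpa, whose product binds a stem-loop of U1, had the highest fold change of all members at 0.54 (SE 0.30, p = 0.0737, mean 17.4) in the authors' deposited table. Its annotated locus overlaps the gene BC024978, so its reads may be shared with that gene. Of the other U1 proteins, Snrpc, which steadies U1 on the 5′ splice site, was at 0.08 (SE 0.29) and Snrnp70 at −0.06 (SE 0.26) in the authors' deposited table. The U2 proteins Snrpa1 and Snrpb2 were at 0.26 (SE 0.30) and 0.11 (SE 0.30) in the authors' deposited table.

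Among the U5 and tri-snRNP genes were the members with the highest input means, Prpf8 and Snrnp200. Prpf8, the scaffold of the catalytic core, had the highest mean of the members at 662 and a fold change of 0.09 (SE 0.21) in the authors' deposited table. The helicase gene Snrnp200, whose product unwinds U4 from U6, had a mean of 242 and a fold change of 0.02 (SE 0.22) in the authors' deposited table. Normal 95% intervals from these errors ran from −0.32 to 0.49 for Prpf8 and from −0.41 to 0.44 for Snrnp200, on the authors' scale. Eftud2, the GTPase of U5, was highest in the group at 0.46 (SE 0.27, p = 0.0891) in the authors' deposited table. The lowest was Prpf6, a bridge within the tri-snRNP, at −0.04 (SE 0.27) in the authors' deposited table. Snrnp40, Prpf3, Prpf4 and Prpf31 lay between 0.01 and 0.29 in the authors' deposited table.

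The 3 members specific to the minor spliceosome lay below 0 in the input. These encode proteins of the U11/U12 particle: Snrnp25 stood at −0.12 (SE 0.25), Snrnp35 at −0.16 (SE 0.25) and Snrnp48 at −0.21 (SE 0.30) in the authors' deposited table. The lowest unadjusted p of the 3 was 0.496, and their means of 2.87, 3.01 and 9.96 are all under 10. Of 5 further minor spliceosome genes outside the members, 2 lay above 0, Rnpc3 at 0.10 (SE 0.28) and Pdcd7 at 0.01 (SE 0.30), in the authors' deposited table. The other 3 lay below 0: Zcrb1 at −0.45 (SE 0.29), Zrsr2 at −0.27 (SE 0.29) and Zmat5 at −0.09 (SE 0.30).

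LSm proteins form the ring of U6 in the nucleus (Lsm2 to Lsm8) and of decaying mRNA in the cytoplasm (Lsm1 to Lsm7). Of the 6 LSm genes found in the input, 5 lay above 0, with Lsm4, shared by both rings, highest at 0.33 (SE 0.29) in the authors' deposited table. Lsm1, which is specific to the cytoplasmic ring, was lowest at −0.16 (SE 0.30), and Lsm8, specific to the nuclear ring, stood at 0.14 (SE 0.29) in the authors' deposited table. Lsm2, Lsm3 and Lsm6 lay between 0.08 and 0.22 in the authors' deposited table, and the lowest unadjusted p in the ring was 0.254. Lsm7 was found in the immunoprecipitate only, and Lsm5 in neither table. Lsm10 and Lsm11, which belong to the histone-processing U7 particle, were at 0.11 (SE 0.30) and −0.20 (SE 0.30) in the authors' deposited table.

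In the SMN complex, Smn1, whose product gives the complex its name, was highest at 0.40 (SE 0.30, p = 0.180, mean 8.53) in the authors' deposited table. Gemin5, which recognises the snRNA to be assembled, was at −0.03 (SE 0.28) and Gemin7 lowest at −0.11 (SE 0.29) in the authors' deposited table. Gemin2 is listed under its older name Sip1 and was identified by its gene identifier; it stood at 0.07 (SE 0.30, mean 14.2) in the authors' deposited table and is not counted among the 42. Gemin4, Gemin6 and Gemin8 were not found in either table.

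The genes of cap binding, transport and maturation had a median fold change of 0.06. Ncbp2, the cap-binding subunit itself, was highest at 0.36 (SE 0.30), while its partner Ncbp1 stood at 0.05 (SE 0.27) in the authors' deposited table. Phax, the export adaptor, Snupn, the import adaptor, and Tgs1, the cap hypermethylase, stood at 0.05 (SE 0.28), 0.09 (SE 0.30) and 0.04 (SE 0.30) in the authors' deposited table. Coil, which encodes the Cajal body protein coilin, was at 0.15 (SE 0.30) and Sart3, a recycling factor of U6, at 0.07 (SE 0.30) in the authors' deposited table. Ints1, a subunit of the Integrator complex that cuts the 3′ end of snRNA precursors, was lowest at −0.15 (SE 0.27) in the authors' deposited table.

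Standard errors in the input table do not order the genes by precision. Their median over all genes was 0.23 at means under 3, 0.30 at means from 10 to 20 and 0.23 at means of at least 500. The error of Snrnp25 (0.25 at a mean of 2.87) was thus below that of Lsm2 (0.30 at a mean of 11.1), though it rests on fewer reads. Of the 42 members, 14 had a mean under 10 and 6 a mean of at least 50.

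The rest of the pathway had no call in the input either. Of 51 found in the input (U2 SF3 complexes, further tri-snRNP proteins, assembly and transport factors, Integrator, snRNA transcription factors, partners of U6 and 7SK, further minor spliceosome proteins), 0 were called and 1 had an unadjusted p under 0.05 in the authors' deposited table; their median was 0.07. That gene was Ints2 of the Integrator, at 0.65 (SE 0.29, p = 0.0246) in the authors' deposited table. Next by p were Sf3b3 of the U2 particle at 0.44 (SE 0.25), Sart1 of the tri-snRNP at −0.49 (SE 0.29), Zcrb1 of the minor spliceosome at −0.45 (SE 0.29) and Usp39 of the tri-snRNP at 0.36 (SE 0.27) in the authors' deposited table. Hepatocyte markers were found 5 of 5, with means from 294 to 84262 in the input. Red cell markers stood lowest among the cell type lists, with Alas2 at −0.99 and Hba-a1 at −0.48 in the authors' deposited table; their part in the members' values was not tested.

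Immunoprecipitated RNA was then compared to ask whether the antibody recovered more or less of these mRNAs in the knockout. No member feature was called. None of the 19 features has an adjusted p in the authors' deposited table, so none could be called there. Over all features 31.0% have one, and 4.69% of those were called. An unadjusted p was given for 16, of which 0 were under 0.05, against 10.4% of all features with a p. These p-values are not those of fold change over standard error, so they need not follow from the values printed beside them. The features had means from 0.668 to 13.5, and only the 2 of Snrnp25 reached 10, so these values rest on few reads.

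Fold changes of the members in the immunoprecipitate ran from −9.10 to 5.02, with a median of −0.45 over the 19 features and −1.84 with 1 feature per gene, in the authors' deposited table. The median of all features was −1.59, and 6 of the 12 genes lay above it. Of the Sm ring, Snrpf stood at −1.49 (SE 2.19, mean 6.80) and Snrpd2 at −2.19 (SE 1.87, mean 2.68) in the authors' deposited table. The U1 proteins lay on both sides of 0, with Snrpc at 3.97 (SE 4.26), Snrpa at −2.79 (SE 2.95) for each of 2 transcripts and Snrnp70 at −5.70 (SE 2.87) in the authors' deposited table. Snrpc had a mean of 0.668, the lowest of the members. Prpf8 stood at −0.45 (SE 2.97) for each of 2 transcripts and Prpf4 at 0.14 (SE 2.34) in the authors' deposited table. The LSm genes Lsm4 and Lsm7 were at 1.90 (SE 2.38) and −5.26 (SE 2.24) in the authors' deposited table. Among member features given a p by the authors, Lsm7 had the lowest (p = 0.100). The Wald p of its fold change over standard error was 0.0191, unadjusted. Sip1 (Gemin2), outside these counts, stood at −0.86 (SE 2.83) in the authors' deposited table.

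**Figure D2:**
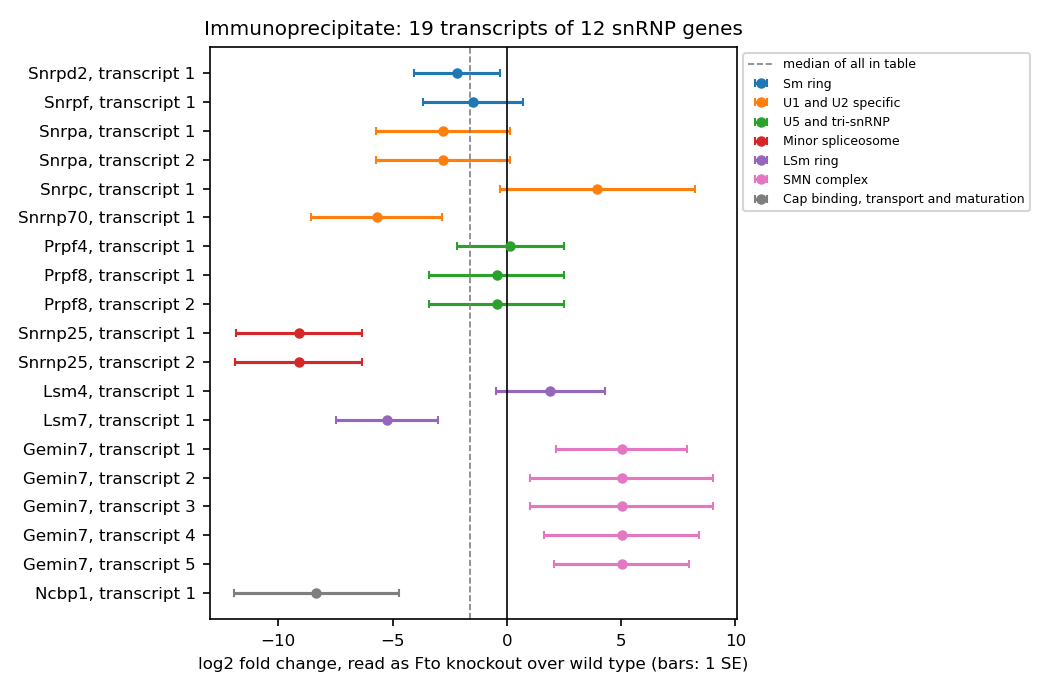
Log2 fold change of the 19 immunoprecipitate features of 12 snRNP genes, read as knockout over wild type, with bars of 1 standard error and colours for the role group; the dashed line is the median of all features (−1.59). Snrnp25 and Ncbp1 lie lowest, and the 5 Gemin7 transcripts share 1 value near 5.02.

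The extremes were Gemin7, Snrnp25 and Ncbp1. All 5 Gemin7 transcripts stood at 5.02, with standard errors from 2.86 to 4.01 and unadjusted p from 0.435 to 0.811, in the authors' deposited table. Both Snrnp25 transcripts stood at −9.10 (SE 2.77 and 2.78, means 13.5 and 13.3) and Ncbp1 at −8.33 (SE 3.60, mean 4.07) in the authors' deposited table. The authors give no p for these last 3 features, as for 9.55% of all features, though a test statistic is given for them (6.47, 6.37 and 2.20). Why the p is missing is not stated. Whether 1 replicate drives these values cannot be checked without replicate values. When calls were instead made from fold change over standard error, adjusted over all features, both Snrnp25 transcripts passed (adjusted p = 0.0157 and 0.0159), where 10.8% of all features did. That pass rests on features the authors left without a p.

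The Snrnp25 value was not particular to Snrnp25. Mpg, which encodes a DNA repair glycosylase and lies 17.5 kb away without overlapping it, had the same mean (13.3) and the same fold change (−9.10) as the second Snrnp25 transcript in the authors' deposited table. Red cell genes also had low values in the immunoprecipitate: Hba-a1 stood at −23.04 and Alas2 at −8.78 in the authors' deposited table, both with an unadjusted p under 0.05 and neither called. The alpha globin genes lie in the same stretch as Snrnp25. Hba-x and Hba-a1 (both −23.04) lie 67.6 and 74.7 kb away and Hba-a2, at −1.40, 87.5 kb away, in the authors' deposited table. Other genes there were low too: Rhbdf1 and Mare (both −6.59) at 0.589 and 23.0 kb, and F830116E18Rik (−8.48) at 78.0 kb. The part of any of these genes in the Snrnp25 value was not tested. Gemin7 shared its fold change, though not its means, with neighbours: Relb, Clptm1 and Lrrc68, all within 58.2 kb of it, stood at 5.02 in the authors' deposited table. For Lsm4 at 1.90, the neighbours Pde4c (1.90), Rab3a (1.90), Gdf15 (1.91) and Lrrc25 (1.88) lay within 76.0 kb, in the authors' deposited table. Snrpa at −2.79 was matched by Mia1 and Rab4b (both −2.79) and Egln2 (−2.79 and −2.78) within 20.2 kb, and Snrpd2 at −2.19 by Fbxo46 (−2.19) at 11.2 kb, in the authors' deposited table. Counting protein-coding genes with an immunoprecipitate feature within 100 kb and a difference under 0.02 on the log2 scale, 6 of the 12 members had such a neighbour. Prpf4 was the sixth, through Slc31a1, but its value of 0.14 is shared by 271 features of 205 genes across the table. Snrpf, Snrpc, Snrnp70, Prpf8 and Lsm7 had neighbours in reach and no match, and Ncbp1 had no such neighbour in reach. The share of all genes with such a match was not counted, so 6 of 12 cannot be read as particular to the members. Annotated loci of 3 of the 12 (Snrpa, Snrpf and Ncbp1) and of 16 of the 49 members overlap another gene, whose reads could be counted with theirs.

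**Figure D3:**
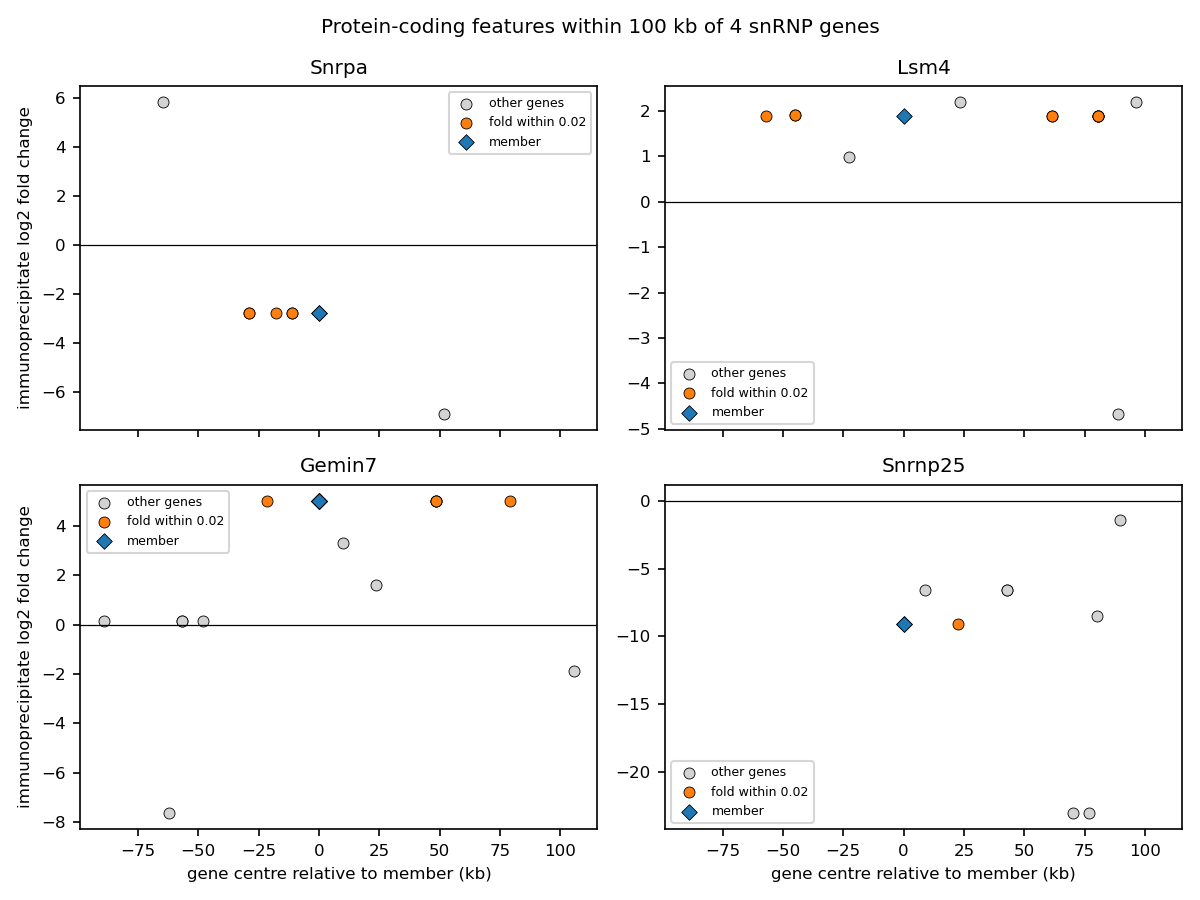
Immunoprecipitate log2 fold change of each protein-coding feature within 100 kb of Snrpa, Lsm4, Gemin7 and Snrnp25, against the distance between gene centres in kb; blue diamonds are the member, orange points neighbours within 0.02 of it, grey points other genes. Matching neighbours number 3 genes for Snrpa, 4 for Lsm4, 3 for Gemin7 and 1 for Snrnp25.

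The sharing extended over the immunoprecipitate table. With 1 feature per protein-coding gene and values repeated in 20 or more features left out, 15.8% of gene pairs less than 10 kb apart had fold changes within 0.02, and 12.5% of pairs 10 to 50 kb apart. The share was 5.25% at 50 to 100 kb, 2.47% at 100 to 200 kb and 0.483% at 200 to 500 kb, against 0.342% for pairs on different chromosomes. In the input, with the tolerance scaled to the spread of its fold changes, the shares were 0.348% under 10 kb and 0.250% on different chromosomes. Pairs share genes and are not independent, so these shares are given without a test. A match was defined by a fold change within 0.02 of the member's, so the likeness of matched fold changes is by definition. The means of members and their matching neighbours mostly differed. Only Snrnp25 had a matching neighbour with the same mean, while Lsm4 had a mean of 5.17 and its neighbour Rab3a 7.88 or 8.77. How reads were assigned to features was not stated in any source used.

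**Figure D4:**
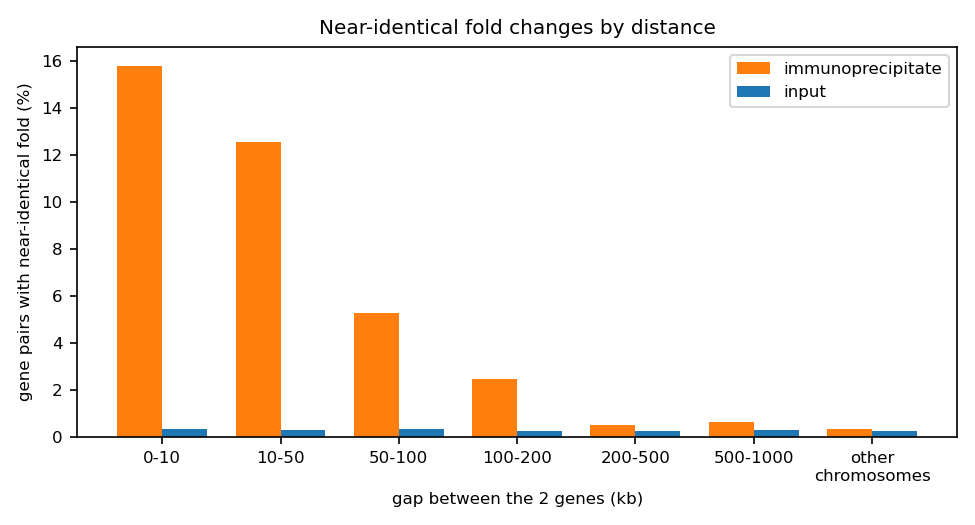
Share of gene pairs (percent) with near-identical log2 fold changes, by the gap between the genes in kb, in the immunoprecipitate (orange) and the input (blue). In the immunoprecipitate the share falls from 15.8% under 10 kb to 0.483% at 200 to 500 kb, while in the input it is 0.348% under 10 kb.

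Members with and without an immunoprecipitate feature overlapped in input mean. Of the 42 input members 11 (26.2%) had a feature there, against 31.0% of all protein-coding genes of the input. The median input mean was 22.3 for the members present and 17.2 for those absent, and 49.4 against 21.1 over all protein-coding genes. Snrnp25, with the lowest input mean of the members (2.87), was present, while Snrnp200 (242), Snrpb (92.2) and Ints1 (83.5) were not among its features. The ratio of the immunoprecipitate mean (the transcript with the highest mean) to the input mean (the whole gene) was taken next. Its median was 0.171 over the 11 members and 0.0977 over 3839 protein-coding genes. Immunoprecipitate and input were normalized separately, so only the order can be read. Apart from Snrpc, that order in the members is nearly the reverse of their order by input mean, so it gives little about the immunoprecipitate itself. Prpf8, with the highest input mean of the members, had the lowest ratio at 0.00428, at percentile 1.30 of the 3839 genes. Snrnp25 had the highest at 4.69 (percentile 98.9), with the mean it shares with Mpg, and Snrpf came next at 1.76 (percentile 96.1). Their input means, 2.87 and 3.86, were the lowest of the 11.

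**Figure D5:**
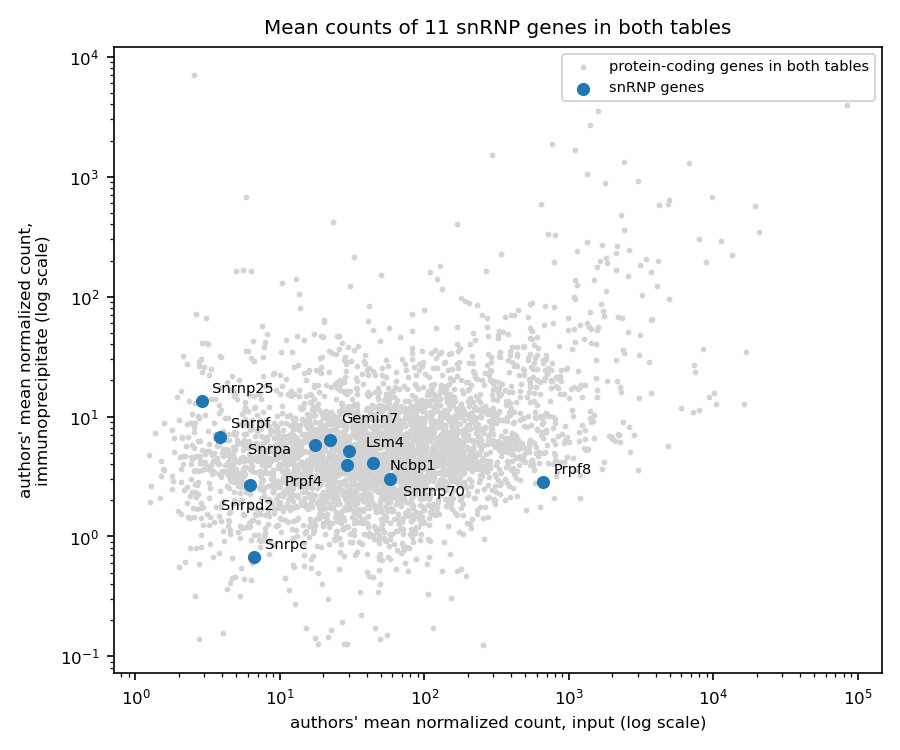
The authors' mean normalized count in the immunoprecipitate against that in the input, both on log scales, for 3839 protein-coding genes (grey) and 11 snRNP genes (blue, named). The members keep to immunoprecipitate means from 0.668 to 13.5 while their input means run from 2.87 to 662.

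The extremes of one table were not those of the other. Snrpa, highest in the input at 0.54, stood at −2.79 in the immunoprecipitate, and Gemin7, highest in the immunoprecipitate at 5.02, stood at −0.11 in the input, in the authors' deposited table. Snrnp25 was at −0.12 and −9.10, and Ncbp1 at 0.05 and −8.33, in the authors' deposited table. The 2 tables differ in scale. Over all genes the input fold changes ran from −1.49 to 1.36, and over all features the immunoprecipitate ones from −25.0 to 22.9. Sizes in the 2 tables can therefore not be set against each other. Since it is not given whether the immunoprecipitate fold change is already relative to the input, the difference between the tables was not tested.

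Among other genes of the pathway, 20 had 26 features in the immunoprecipitate, in the authors' deposited table. An adjusted p was given for only 3 of these features, of which 0 were called, against 4.69% of all features with an adjusted p. An unadjusted p was given for 20 features, of which 1 was under 0.05, against 10.4% of all features with a p. That feature was of Mepce, the capping enzyme of 7SK, at −9.34 (SE 2.08, p = 0.0235, mean 5.92) in the authors' deposited table. The highest mean was that of U2af1, which reads the 3′ splice site, at 165, with a fold change of −0.95 (SE 1.18, with an adjusted p of 0.583) in the authors' deposited table; it was named after its value was seen.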

How the data were processed

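Both tables are the authors' DESeq2-type comparisons; per the submitters' processing notes, STAR, bedtools 2.25.0, DESeq2 and the build mm10 were used, in roles not stated. Per the file headers, each row has the authors' mean signal (normalized counts), log2 fold change with standard error, a test statistic (a score) and the authors' p-value and adjusted p-value. Depth per library is unknown, since no replicate values were used. In the input the deposited statistic equals fold change over standard error. In the immunoprecipitate the p-value matches a chi-square test (1 degree of freedom) of the deposited statistic. That statistic is not the square of fold change over standard error: for Lsm7 it was 2.71, where fold change over standard error was −2.34.

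Members were matched on the deposited gene name, and called at an adjusted p under 0.05. The members and lists were chosen with earlier results of these data known. Named genes are every member with an immunoprecipitate feature, the highest and lowest of each role group in the input, any member with an unadjusted p under 0.05, and up to 5 pathway genes by p; the other members and genes named were added after their values were seen. Benjamini-Hochberg and Wald computations (Python 3.11.15, scipy 1.17.1) were tested on simulated data. Gene positions for the neighbour comparison, chosen after seeing the data, came from RefSeq (GRCm38.p6) by symbol or unique synonym, for 6431 of 6715 protein-coding features.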

Additional observations from a re-analysis of the deposited data

How the results depend on the processing

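No paired analysis was possible because the tables hold no values of single replicates, for which reason no replicate could be left out either. In the input, members called, members with an unadjusted p under 0.05 and other pathway genes called each numbered 0 under the alternatives run for them (adjustment over all genes, a minimum mean of 10, the Wald p). These alternatives could give no other count. Every input gene with a p already has an adjusted p, and the Wald p is the deposited p. The lowest unadjusted p of a member in the authors' test was 0.0737. In the immunoprecipitate the count of called members was 0 with adjustment over all features, and 2 (both Snrnp25) with the Wald p of fold change over standard error. The 0 was fixed in advance, since the lowest unadjusted p of a member feature in the authors' test was 0.100. The count was also 0 with 1 feature per gene or a minimum mean of 10, but these settings could give no other count. No member feature has an adjusted p, and the Snrnp25 features, the only ones that reach a mean of 10, have no p. The median fold change of members in the immunoprecipitate was −9.10 at a minimum mean of 10, where only the 2 Snrnp25 features are left, and 1.15 once centred on all features. The input median lay between 0.06 and 0.08 under all alternatives run. Depth per library is unknown. Means under 10 for 17 of the 19 immunoprecipitate features, fold changes shared with neighbouring genes and an assumed sign all limit the immunoprecipitate values.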
